A study of Mus musculus with 12 samples.

Results

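Lysosomes digest protein, sugar chains and lipid with acid hydrolases, and the genes described here code for such hydrolases, for membrane proteins of the lysosome and for regulators of its genes. The members are 38 genes picked by symbol for these roles, out of 23022 listed genes, and each of the 38 symbols was found. They fall into 9 proteases, 9 glycosidases including a sulfatase, 7 genes of lipid handling, 7 membrane proteins with progranulin, 4 genes of acidification, and the transcription factors *Tfeb* and *Tfe3*. The study edited *Mbnl1* and *Mbnl2* in B16-F10 mouse melanoma cells of C57BL/6 origin and measured RNA by sequencing with and without interferon γ (IFNγ). DKO cells received a lentivirus with paired guides against both genes, and NTC cells received control guides. Both came from the same Cas9-expressing clone and were selected with puromycin. Treated cells had IFNγ at 1 ng per mL for 24 h, and each of the 4 conditions has 3 libraries. The edited cells are a polyclonal population in which the study's western blots did not show a complete loss of protein, and the parent line is 1 clone.

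Lysosomal hydrolases are made in the endoplasmic reticulum, most are tagged with mannose phosphate and carried to the lysosome, and they work at the acid pH that the vacuolar proton pump (V-ATPase) sets up. TFEB and TFE3, relatives of the melanocyte factor MITF, move to the nucleus when the kinase complex mTORC1 is less active and bind E-box elements known as CLEAR elements near lysosomal genes. Melanocytes and melanoma cells use much of the same machinery for melanosomes, which are lysosome-related organelles.

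The labels were checked first, in TPM, a level per unit of transcript length that can be set side by side between genes. *Mbnl1*, an RNA-binding splicing regulator and one of the edited genes, was at 56.8, 57 and 55.6 TPM in untreated NTC, 60.5, 63.9 and 63.3 in treated NTC, 41.3, 41.1 and 44 in untreated DKO, and 44.9, 42.7 and 47.5 in treated DKO. *Mbnl2*, its edited relative, was at 107, 99.2 and 101 TPM, then 107, 104 and 107, then 87.2, 90.2 and 90, then 88.9, 83.9 and 98 in the same order. For both genes every DKO library lies under every NTC library of the same treatment, and the RNA is lower but not absent. The log2 difference of TPM + 1, DKO against NTC, was −0.41 untreated and −0.47 treated for *Mbnl1* (limma adjusted p = 2.54e-05 and 8.12e-06) and −0.20 and −0.23 for *Mbnl2* (adjusted p = 0.00937 and 0.00308).

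All 7 melanocyte markers were detected, the most abundant being *Tyrp1*, a melanin enzyme, at a mean of 5240 TPM. Their summed TPM was 17550, 16650 and 16790 in untreated NTC, 18050, 18140 and 18640 in treated NTC, 11120, 11280 and 11450 in untreated DKO, and 12410, 12320 and 12400 in treated DKO. The sum is lower in each DKO library than in any NTC library, and no melanocyte marker is at 0. The markers called lower in DKO were 7 of 7 in untreated and 6 of 7 in treated cells. These are bulk samples, so fewer cells of a type and less RNA per cell cannot be told apart. Macrophage markers, which matter here since macrophages are rich in lysosomes, were near 0: *Ptprc* and *Tyrobp* were at 0 in all 12 libraries, the most abundant was *Lyz2* at a mean of 0.506 TPM, and the 6 listed markers together reached between 0.583 and 2.124 TPM. All 4 T cell markers were at 0. Of the endothelial markers *Cdh5*, *Kdr* and *Tie1* were at 0 and *Pecam1* had a mean of 0.552 TPM, and of the fibroblast markers *Dcn* and *Lum* were at 0 and *Pdgfrb* was highest at 3.08 TPM. The 5 fibroblast markers sum to 4.527, 4.12 and 4.023 TPM in untreated NTC, 3.703, 3.807 and 3.166 in treated NTC, 5.331, 5.04 and 5.632 in untreated DKO, and 4.848, 5.386 and 4.992 in treated DKO. This small sum is higher in every DKO library, and of these markers *Col1a1* was called higher in DKO (0.40 and 0.67, adjusted p = 0.0121 and 0.000354), at condition means of 0.635, 0.298, 1.16 and 1.06 TPM; its part in the members' differences was not tested.

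The members span a wide range of levels in these cells. Ordered by mean TPM over the 12 libraries, *Gpnmb*, a glycoprotein of melanosomes and lysosomes, stands first at 2950, followed by the aspartic protease *Ctsd* at 651, *Lamp1* at 472, *Psap* at 350, *Ctsb* at 302, *Ctsz* at 284, *Npc2* at 239, *Ctsl* at 226, *Atp6v0d1* at 196 and *Hexa* at 186. At the other end are *Galns* at 12.5, *Ctsh* at 6.36 and *Ctss* at 0.0366 TPM. A mean of at least 100 TPM was reached by 19 members, 17 lie from 10 to under 100 TPM, and 2 lie under 10 TPM. *Gpnmb* alone makes up between 37.6% and 39.3% of the members' summed TPM in a library. Within a condition the members vary little: the median over members of the SD of log2(TPM + 1) was 0.0483 in untreated NTC, 0.0546 in treated NTC, 0.0391 in untreated DKO and 0.064 in treated DKO, beside 0.0715, 0.0789, 0.069 and 0.0934 over all tested genes.

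**Figure D1:**
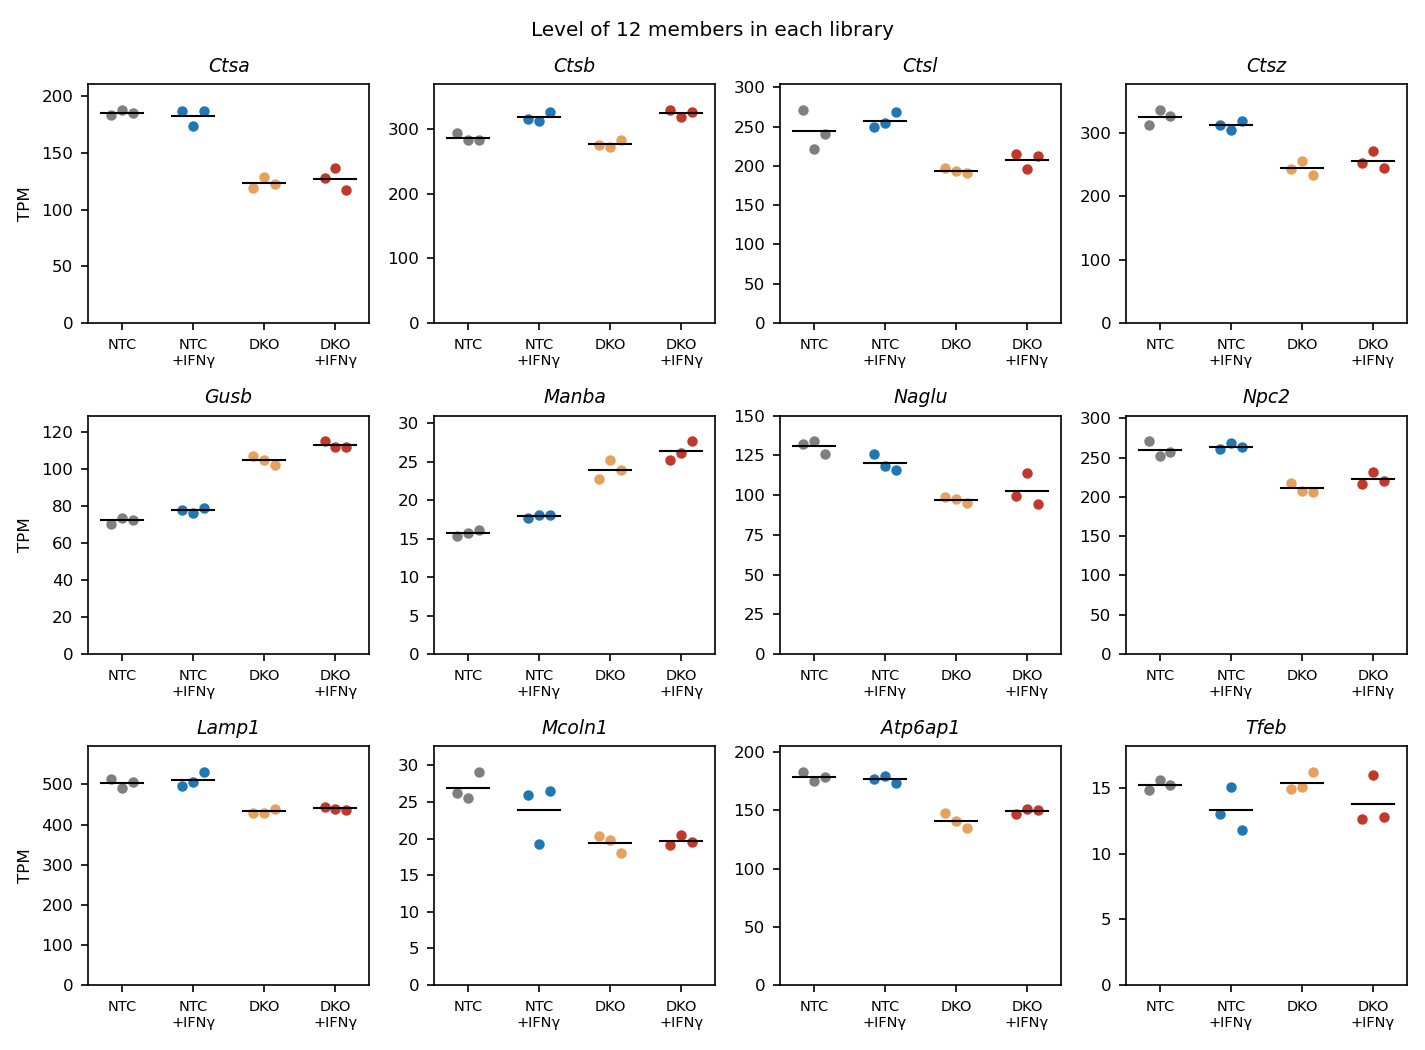
TPM of 12 members in the 12 libraries. Each point is a library, each short line the mean of a condition, and each axis starts at 0.

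The test throughout is limma on log2(TPM + 1), run on the 11663 genes that reach 1 TPM in 3 or more libraries, and a gene is called where its adjusted p is under 0.05. Of the 38 members 37 were tested; the exception is *Ctss*, a cysteine protease of antigen-presenting cells, which was at 0 in 11 libraries and at 0.439 TPM in treated DKO replicate 2. Nothing in the labels says that the replicates are separate cultures, so the p-values measure the spread between samples, which may be technical. Over all tested genes the first principal component holds 50% of the variance, with NTC libraries from −20.59 to −10.65 and DKO libraries from 12.55 to 18.93. The libraries are unstranded, so where exons of opposite strands overlap their reads cannot be assigned to a strand. That touches 11 of the 38 members by exon, 8 of them with a partner of at least 1 TPM; the most abundant partners are *Cap1* at a mean of 104 TPM (129 bases shared with *Ppt1*), *Fdft1* at 52.6 TPM (774 bases shared with *Ctsb*) and *Nelfcd* at 29.5 TPM (10 bases shared with *Ctsz*).

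Promoters were read from RefSeq (build GRCm38.p6) over 250 bases before to 50 bases after the start, and 32 of the 38 members matched. *Ctsb*, *Ctsh*, *Galns*, *Asah1*, *Npc1* and *Atp6v1h* have no entry. For each gene 1 promoter was used, that of the most upstream start. More than 1 is listed for 6 members, and their other promoters were not searched. The letters CACGTG, the E-box at the core of the CLEAR element, are in 9 of the 32 (28.1%), against 7.24% of all 27025 promoters of that length and 10.5% of the 8481 promoters of tested genes. The 9 are *Atp6v0d1*, *Atp6v1a*, *Ctsd*, *Ctsl*, *Gla*, *Glb1*, *Lamp1*, *Mcoln1* and *Naglu*. The longer form TCACGTGA, which contains CACGTG, is in 5 of them (15.6% of the 32 against 1% of all and 2.13% of tested genes): *Atp6v0d1*, *Atp6v1a*, *Ctsd*, *Gla* and *Mcoln1*. Of the members with a promoter, the E-box is in 6 of 14 that were called lower in untreated DKO, in 1 of 5 called higher and in 2 of 12 tested and not called. For the longer form these counts are 3, 0 and 2. The split was not made over all tested genes, the counts are small, and a link between motif and call was not tested. The M-box of MITF, TCATGTG, is in 6 members (18.8% against 3.72% of all and 2.13% of tested genes): *Ctss*, *Gla*, *Grn*, *Ppt1*, *Scarb2* and *Tpp1*. Both strands were searched. None of these letters is in the *Tfeb* or *Tfe3* promoter, which says only that they are not in these windows. A match is a description of letters, not a bound site.

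The 4 stretches of 100 bases that follow are shown because they lie before the start and hold an E-box and no annotated exon. Other members with an E-box, such as *Ctsl*, *Naglu* and *Atp6v0d1*, had no such stretch. The stretches were not picked by genotype call, though their 4 genes were each called between DKO and NTC, 1 of them in the opposite direction to the others. The capitals mark CACGTG. *Lamp1*, a membrane glycoprotein of the lysosome, lies on the plus strand at chr8:13159061-13159160 with matches beginning at positions −61, −45, −28 and −15 from the start. *Mcoln1*, the mucolipin calcium channel, lies on the plus strand at chr8:3500357-3500456 with a match at −71; another at −45 is outside the stretch. *Atp6v1a*, the catalytic subunit of the proton pump, lies on the minus strand at chr16:44139306-44139405 with a match at −131; this stretch lies inside the gene as GENCODE annotates it, on none of its exons, while the other 3 lie outside annotated genes. *Glb1*, a galactosidase and the 1 gene of the 4 that is higher in DKO, lies on the plus strand at chr9:114400976-114401075 with a match at −48.
Lamp1: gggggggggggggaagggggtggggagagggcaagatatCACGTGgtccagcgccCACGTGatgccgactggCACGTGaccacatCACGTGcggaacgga
Mcoln1: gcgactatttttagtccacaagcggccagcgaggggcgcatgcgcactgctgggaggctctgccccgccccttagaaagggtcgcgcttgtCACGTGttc
Atp6v1a: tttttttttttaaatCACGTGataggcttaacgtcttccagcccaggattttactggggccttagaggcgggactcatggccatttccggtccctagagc
Glb1: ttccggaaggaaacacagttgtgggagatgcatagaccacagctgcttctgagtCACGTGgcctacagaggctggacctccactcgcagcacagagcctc

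More members were called between genotypes than between treatments. In untreated cells 19 of the 37 tested members (51.4%) were called between DKO and NTC, against 36.4% of all tested genes; 5 members were higher (17% of all genes) and 14 lower (19.4%). In IFNγ-treated cells 21 (56.8%) were called, against 43.3%; 7 were higher (19.5%) and 14 lower (23.9%). Within a condition the members vary less than all tested genes, as given above, and the part of this in the shares called was not tested. The median log2 difference over the tested members was −0.0481 untreated and −0.0109 treated, and over all tested genes −0.0055 and −0.0127. A call in both treatments with the same sign was made for 16 members: *Glb1*, *Gusb*, *Manba*, *Lipa* and *Scarb2* were higher in DKO, and *Ctsa*, *Ctsl*, *Ctsz*, *Naglu*, *Npc2*, *Ppt1*, *Cln3*, *Lamp1*, *Atp6ap1*, *Atp6v0d1* and *Atp6v1a* were lower. The treated and untreated comparisons have no library in common but share 1 estimate of the spread. *Tpp1*, *Gpnmb* and *Mcoln1* were called in untreated cells alone, and *Ctsh*, *Gla*, *Asah1*, *Grn* and *Lamp2* in treated cells alone; no interaction was called for any of these 8. *Ctsb* was called for treatment and not for genotype. The remaining 12 tested members were called in no comparison of genotype or treatment: *Ctsd*, *Lgmn*, *Galns*, *Hexa*, *Man2b1*, *Neu1*, *Npc1*, *Psap*, *Smpd1*, *Atp6v1h*, *Tfe3* and *Tfeb*. How many of all tested genes were called in both treatments, in a single treatment or in no comparison was not counted. These 3 kinds of count therefore have no background beside them and are not read as a trait of the members.

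**Figure D2:**
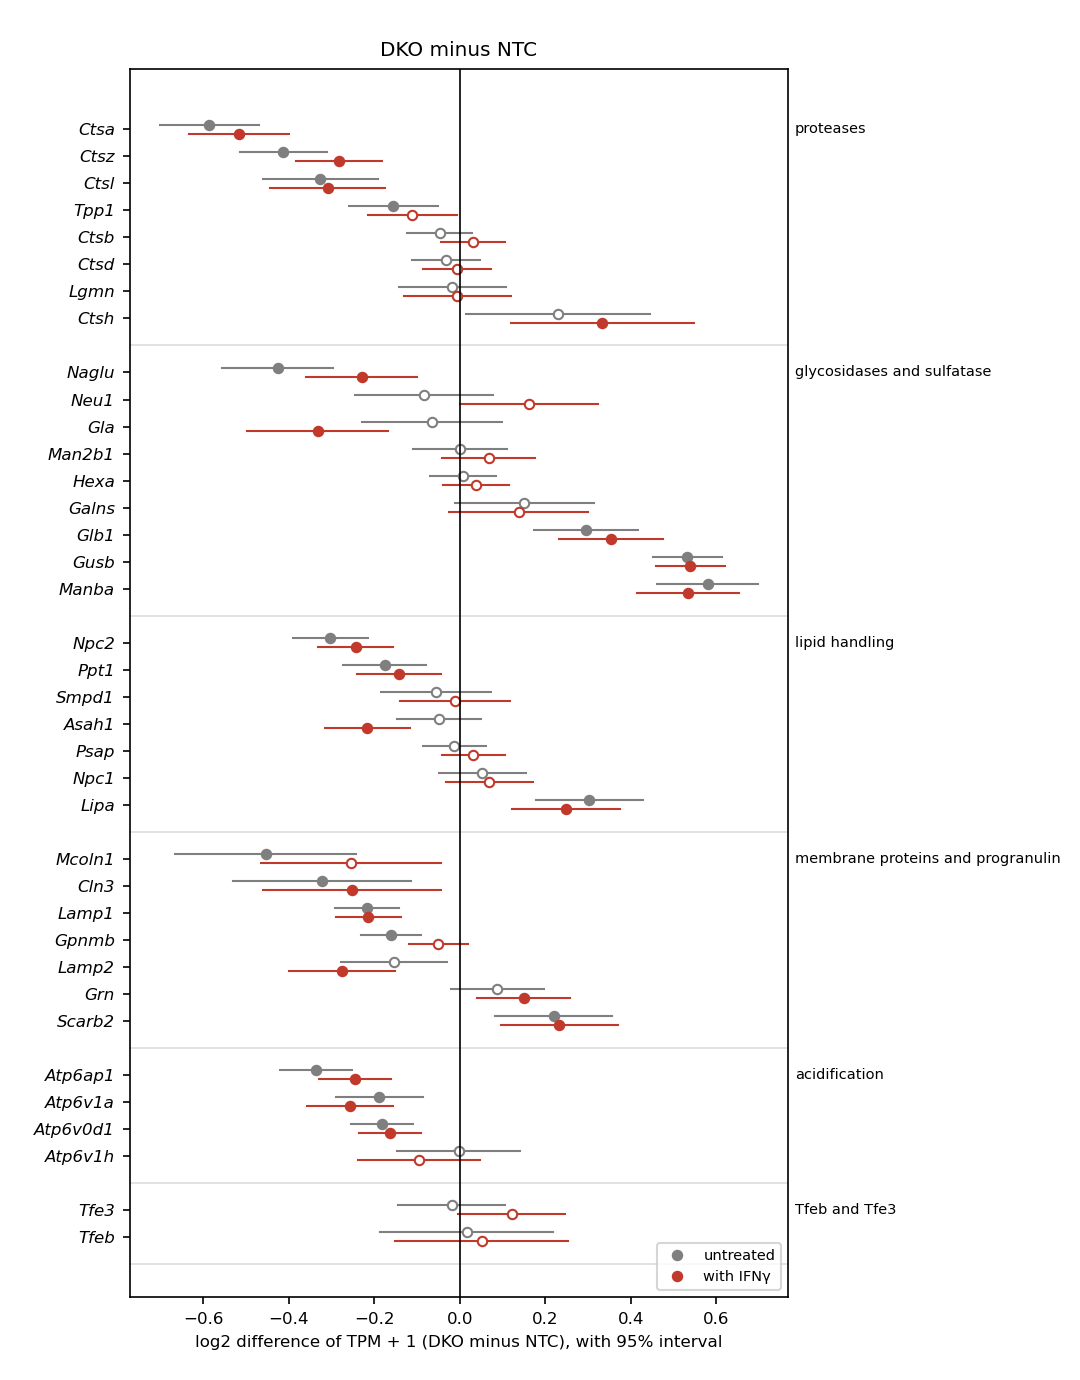
Log2 difference of TPM + 1 between DKO and NTC for the 37 tested members, grouped by role, in untreated and IFNγ-treated cells. Bars are 95% intervals; filled points have an adjusted p under 0.05 and open points do not.

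How many members are higher in treated DKO depends on the scaling between libraries. The TPM of the listed genes sum to between 805782 and 827191 in DKO libraries and to between 844185 and 874612 in NTC libraries. With every library scaled to the same total, treated DKO had 15 members higher and 10 lower in place of 7 and 14, and over all tested genes 3278 higher and 1746 lower in place of 2271 and 2782. In untreated cells the same scaling gave 5 members higher and 13 lower in place of 5 and 14, and over all tested genes 2652 and 1722 in place of 1982 and 2265. Median-ratio scaling left the members at 7 higher and 13 lower in treated and 5 and 14 in untreated cells. The 8 members added as higher in treated DKO at the same total are *Ctsb*, *Galns*, *Hexa*, *Man2b1*, *Neu1*, *Npc1*, *Psap* and *Tfe3*. Scaling moves the medians of members and of all tested genes together: at the same total the median is 0.0020 untreated and 0.0745 treated over the members and 0.0388 and 0.0654 over all tested genes, and in treated cells with median-ratio scaling 0.0088 and 0.0053. At the same total *Npc2*, *Lamp1*, *Atp6ap1* and *Atp6v1a* keep their treated calls with smaller differences, of −0.16, −0.13, −0.16 and −0.17, as does the edited *Mbnl2* at −0.15. The melanocyte marker sum given above moves with genotype as well, and its part in the members' differences was not tested.

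Among the proteases, 4 of 8 tested were called lower and none higher in untreated DKO (50% called, against 36.4% of all tested genes), and 3 lower and 1 higher in treated DKO (50% against 43.3%). *Ctsa*, a serine carboxypeptidase that also protects the galactosidase and the sialidase in a complex, was at 184, 188 and 185 TPM in untreated NTC, 187, 174 and 187 in treated NTC, 119, 129 and 123 in untreated DKO, and 128, 137 and 117 in treated DKO. All 6 DKO libraries lie well under all 6 NTC libraries, and treatment leaves the levels in the same range. The log2 difference was −0.59 untreated (SE 0.0541, adjusted p = 3.37e-06) and −0.52 treated (adjusted p = 8.21e-06), the largest fall among the members in either treatment. *Ctsz*, a cysteine carboxypeptidase, was at 313, 336 and 327 TPM, then 312, 304 and 319, then 243, 255 and 234, then 253, 271 and 245 in the same order of conditions. Again each DKO library is under each NTC library, with log2 differences of −0.41 (SE 0.0469, adjusted p = 1.85e-05) and −0.28 (adjusted p = 0.000345). *Ctsl*, a cysteine endopeptidase, was at 271, 221 and 240 TPM in untreated NTC, the widest spread of its 4 conditions, 249, 254 and 269 in treated NTC, 197, 194 and 191 in untreated DKO, and 215, 196 and 212 in treated DKO. The genotypes do not overlap within a treatment, and *Ctsl* fell, with a log2 difference of −0.33 untreated (SE 0.0626, adjusted p = 0.00124) and −0.31 treated (adjusted p = 0.0015).

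The remaining proteases differ from those 3. *Ctsb*, a cysteine protease, was at 295, 283 and 283 TPM in untreated NTC, 316, 313 and 327 in treated NTC, 276, 273 and 283 in untreated DKO, and 330, 319 and 327 in treated DKO. Here the treated libraries are the high ones in both genotypes, while NTC and DKO overlap. The genotype differences in log2 were −0.05 (adjusted p = 0.321) and 0.03 (adjusted p = 0.501). *Ctsd*, the main aspartic protease, was at 655, 637 and 640 TPM, then 652, 652 and 698, then 629, 628 and 631, then 680, 672 and 641. These levels lie close together, and with log2 differences of −0.03 and −0.01 between genotypes (adjusted p = 0.524 and 0.905) no change was called. *Ctsh*, an aminopeptidase, is a low-level gene at 5.22, 5.8 and 5.67 TPM in untreated NTC, 5.81, 4.9 and 6.44 in treated NTC, 6.82, 6.47 and 6.78 in untreated DKO, and 6.68, 8.6 and 7.1 in treated DKO. Every DKO library is above every NTC library, and *Ctsh* is the 1 cathepsin among the members called higher, in treated cells, at 0.33 (SE 0.0996, adjusted p = 0.0156). That call is lost without treated NTC replicate 2 (0.24, adjusted p = 0.0738) or treated DKO replicate 2 (0.24, adjusted p = 0.0755), and with the 6 treated libraries fitted alone (0.0536); untreated, the difference was 0.23 (adjusted p = 0.0892). *Tpp1*, a tripeptidyl peptidase, had condition means of 141, 141, 127 and 130 TPM and a log2 difference of −0.16 untreated (adjusted p = 0.0222) and −0.11 treated (adjusted p = 0.0783). The untreated call for *Tpp1* depends on untreated NTC replicates 1 and 2 (adjusted p = 0.0929 and 0.0524 when left out), on untreated DKO replicates 1 and 2 (0.0949 and 0.0614) and on the scaling (0.113 at the same total), and the treated difference is called without treated DKO replicate 2 (adjusted p = 0.0397). *Lgmn*, the asparaginyl endopeptidase, stayed between 54.2 and 65.5 TPM with no call.

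Of the 9 glycosidases 3 were called higher and 1 lower in untreated DKO (44.4% called, all tested genes 36.4%), and 3 higher and 2 lower in treated DKO (55.6%, all tested genes 43.3%). *Gusb*, which removes glucuronic acid from glycosaminoglycans, was at 70.4, 73.5 and 72.6 TPM in untreated NTC, 77.5, 76.3 and 78.8 in treated NTC, 107, 105 and 102 in untreated DKO, and 115, 112 and 112 in treated DKO. The 4 conditions form 4 separate bands, the DKO bands being the upper pair. It has the smallest adjusted p of all members, with a log2 difference of 0.53 untreated (SE 0.0374, adjusted p = 2.9e-07) and 0.54 treated (adjusted p = 2.43e-07). *Manba*, the β-mannosidase, was at 15.3, 15.8 and 16.1 TPM, then 17.7, 18.1 and 18.1, then 22.7, 25.3 and 24, then 25.3, 26.2 and 27.7. Its DKO libraries are all above its NTC libraries, and the rise in log2 was 0.58 (SE 0.0552, adjusted p = 4.25e-06) and 0.53 (adjusted p = 7.38e-06). *Glb1*, the β-galactosidase, had condition means of 36.5, 38.8, 45 and 49.9 TPM in the same order and rose by 0.29 and 0.35 (adjusted p = 0.00124 and 0.00027).

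*Naglu*, a glucosaminidase of heparan sulfate breakdown, goes the other way: 132, 134 and 126 TPM in untreated NTC, 126, 118 and 116 in treated NTC, 99, 97.5 and 95.1 in untreated DKO, and 99.6, 114 and 94.2 in treated DKO. Treated DKO replicate 2 comes close to the treated NTC libraries without reaching them, and the other DKO libraries are clearly lower. *Naglu* fell, at −0.43 untreated (SE 0.0604, adjusted p = 0.000122) and −0.23 treated (adjusted p = 0.00788), the treated call being lost on scaling to the same total (adjusted p = 0.0969) and the treated value being −0.41 with the trend over GC content and length removed. *Gla*, an α-galactosidase acting on glycolipids, had means of 18, 23.2, 17.2 and 18.3 TPM and was lower in treated DKO (−0.33, adjusted p = 0.00334), with −0.07 in untreated cells (adjusted p = 0.541). The remaining glycosidases had no call. *Hexa*, the α subunit of β-hexosaminidase and the most abundant of the group, was at 185, 179 and 180 TPM, then 183, 192 and 190, then 185, 178 and 183, then 189, 196 and 194. The sulfatase *Galns*, the least abundant, was at 9.91, 11 and 11.4 TPM in untreated NTC, 12, 12.5 and 13.9 in treated NTC, 11.8, 11.7 and 12.6 in untreated DKO, and 13.7, 15.5 and 13.5 in treated DKO. *Hexa* overlaps between genotypes in both treatments, and the untreated DKO libraries of *Galns* all lie above the untreated NTC ones without a call (0.15, adjusted p = 0.138). *Man2b1*, an α-mannosidase, ranged from 42 to 51.3 TPM, and the sialidase *Neu1* from 52 to 69.4 TPM; *Neu1* is called higher in treated DKO when treated DKO replicate 3 is left out (0.23, adjusted p = 0.0256).

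In lipid handling, 1 of 7 was called higher and 2 lower in untreated DKO (42.9% called, beside 36.4% of all tested genes), and 1 higher and 3 lower in treated DKO (57.1% beside 43.3%). The cholesterol carriers part company: *Npc2*, the soluble carrier of the lysosome's interior, was at 271, 252 and 257 TPM in untreated NTC, 261, 268 and 263 in treated NTC, 218, 208 and 206 in untreated DKO, and 216, 232 and 220 in treated DKO. Each DKO library is lower than each NTC library, with log2 differences of −0.30 (SE 0.0407, adjusted p = 8.14e-05) and −0.24 (adjusted p = 0.000376). *Npc1*, the membrane protein that takes cholesterol from it and the least abundant of the group, was at 30.4, 29.4 and 28.4 TPM, then 32, 30.6 and 33.1, then 29.7, 30.9 and 30.9, then 33.7, 33.5 and 33.3. Its untreated groups overlap, its treated DKO libraries all lie above its treated NTC ones, and neither genotype difference was called (0.05 and 0.07, adjusted p = 0.415 and 0.258). The treated difference is called at the same total and with the trend over GC content and length removed. *Lipa*, the acid lipase that frees cholesterol and fatty acids, was at 50.3, 51.8 and 47.5 TPM, then 49.5, 54.2 and 53.7, then 59.6, 60.6 and 65, then 63.9, 58.1 and 65.6. All its DKO libraries are above all its NTC libraries, and it rose by 0.30 (SE 0.0582, adjusted p = 0.00123) and 0.25 (adjusted p = 0.00384).

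The same group holds enzymes of sphingolipid breakdown. *Asah1*, the acid ceramidase, was at 105, 98.2 and 100 TPM in untreated NTC, 112, 120 and 110 in treated NTC, 94.4, 101 and 97.8 in untreated DKO, and 98.4, 95.2 and 101 in treated DKO. Treated NTC is the high condition, and the other 3 overlap. *Asah1* was lower in treated DKO (−0.22, SE 0.0458, adjusted p = 0.00206; −0.09, adjusted p = 0.0523, with a replicate block and the trend over GC content and length removed), with −0.05 untreated (adjusted p = 0.444). *Psap*, the precursor of the saposins that help these enzymes and the most abundant of the group, was at 357, 352 and 341 TPM, then 347, 344 and 354, then 352, 344 and 345, then 356, 366 and 346. The 4 conditions of *Psap* overlap, and its 95% intervals run from −0.09 to 0.06 untreated and from −0.04 to 0.11 treated. *Smpd1*, the acid sphingomyelinase, ranged from 54.6 to 63.5 TPM without a call. *Ppt1*, which removes palmitate from proteins, had means of 39.6, 41.6, 34.9 and 37.6 TPM and was lower, at −0.18 untreated (adjusted p = 0.00806) and −0.14 treated (adjusted p = 0.0213). The treated call for *Ppt1* is lost without treated NTC replicate 1 (adjusted p = 0.0578), on scaling to the same total (0.344), with the trend over GC content and length removed (0.527) and with the 6 treated libraries fitted alone (0.0511).

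Of the 7 membrane proteins and progranulin, 1 was called higher and 4 lower in untreated DKO, and 2 higher and 3 lower in treated DKO (71.4% called in each, where all tested genes have 36.4% and 43.3%). *Lamp1*, a main glycoprotein of the lysosomal membrane with 4 E-boxes in the stretch printed above, was at 514, 491 and 506 TPM in untreated NTC, 496, 505 and 531 in treated NTC, 429, 430 and 440 in untreated DKO, and 445, 439 and 437 in treated DKO. A gap separates the genotypes, and IFNγ leaves each in its range. *Lamp1* fell, at −0.22 untreated (SE 0.035, adjusted p = 0.000335) and −0.21 treated (adjusted p = 0.000315). *Lamp2*, its relative with a role in autophagy, was at 165, 150 and 153 TPM, then 177, 190 and 186, then 136, 142 and 142, then 153, 139 and 165. The DKO libraries are lower within each treatment, treated NTC being the highest condition, and *Lamp2* was called in treated cells (−0.28, SE 0.0574, adjusted p = 0.00178; −0.11, adjusted p = 0.00964, with the trend over GC content and length removed). Untreated, *Lamp2* had −0.15 (adjusted p = 0.0508) and is called in 5 of 20 alternative fits: with the trend over GC content and length removed (−0.12, adjusted p = 0.00685), the same with a replicate block (0.0151), with the 6 untreated libraries alone (0.021), and without treated DKO replicate 2 (0.0183) or 3 (0.0225), which enter that comparison through the shared spread alone.

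*Gpnmb*, the most abundant member, was at 3070, 3030 and 3000 TPM in untreated NTC, 3110, 3020 and 3130 in treated NTC, 2740, 2680 and 2720 in untreated DKO, and 2970, 3070 and 2910 in treated DKO. Untreated DKO stands apart as the low condition, and the other 3 overlap. It fell in untreated DKO, at −0.16 (SE 0.0323, adjusted p = 0.00164) and was not called in treated cells (−0.05, adjusted p = 0.229). *Cln3*, a membrane protein affected in a childhood storage disease and the least abundant of the group, was at 14.4, 15.3 and 14.9 TPM, then 15.1, 12.9 and 12.2, then 12.6, 11.8 and 10.6, then 9.52, 11.6 and 12.3. Its untreated groups are apart, and its treated groups overlap at treated NTC replicate 3 and treated DKO replicate 3. *Cln3* was lower, at −0.32 untreated (SE 0.0966, adjusted p = 0.0186), a call that ends when untreated NTC replicate 2 (0.0579) or untreated DKO replicate 3 (0.0824) is left out. The treated value was −0.25 with adjusted p = 0.0499 and is called in 5 of 20 alternative fits; the adjusted p rises to 0.221 without treated DKO replicate 1 and to 0.196 without treated NTC replicate 1.

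*Mcoln1*, the mucolipin channel whose promoter stretch is printed above, had condition means of 27, 23.9, 19.4 and 19.7 TPM and fell, at −0.45 untreated (SE 0.098, adjusted p = 0.00268). In treated cells its difference was −0.25 (adjusted p = 0.0502), and treated NTC replicate 2, at 19.3 TPM beside 26 and 26.5 in the other two, decides it: without that library the difference is −0.39 (adjusted p = 0.0011). *Scarb2*, the receptor that carries β-glucocerebrosidase to the lysosome, is the 1 membrane protein called higher in both treatments, with means of 26.1, 28.6, 30.5 and 33.8 TPM and differences of 0.22 and 0.23 (adjusted p = 0.0157 and 0.00965). Its untreated call ends when either untreated NTC replicate 3 (adjusted p = 0.0574) or untreated DKO replicate 2 (0.0577) is left out. *Grn*, the secreted growth factor progranulin, which is cut into granulins in lysosomes, had means of 119, 124, 127 and 138 TPM and was higher in treated DKO by 0.15 (adjusted p = 0.0274). That call is lost without treated NTC replicate 2 (adjusted p = 0.118), treated DKO replicate 1 (0.0531) or treated DKO replicate 2 (0.113), the last being the highest library for *Grn* at 148 TPM, and with the trend over GC content and length removed (0.234). It is also lost with that trend removed and a replicate block, and with the 6 treated libraries fitted alone. Untreated, the difference for *Grn* was 0.09 (adjusted p = 0.19).

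Of the 4 members of acidification 3 were called lower and none higher in both treatments, beside 19.4% and 23.9% of all tested genes called lower. *Atp6v0d1*, a subunit of the membrane sector of the V-ATPase and the most abundant of the 4, was at 207, 200 and 206 TPM in untreated NTC, 209, 213 and 208 in treated NTC, 179, 185 and 177 in untreated DKO, and 187, 190 and 187 in treated DKO. The NTC libraries are all at or above 200 TPM and the DKO libraries all at or under 190. The difference was −0.18 untreated (SE 0.0337, adjusted p = 0.000922) and −0.16 treated (adjusted p = 0.00178), the latter lost on scaling to the same total (adjusted p = 0.0943). *Atp6ap1*, an accessory subunit needed for pump assembly, was at 183, 175 and 179 TPM, then 177, 180 and 174, then 148, 141 and 135, then 147, 151 and 150. A gap lies between the genotypes in both treatments, and *Atp6ap1* fell, at −0.34 (SE 0.0393, adjusted p = 2.35e-05) and −0.24 (adjusted p = 0.000273). *Atp6v1a*, the catalytic subunit of the soluble sector, was at 141, 130 and 139 TPM, then 153, 158 and 152, then 118, 120 and 121, then 131, 121 and 136. On average treated NTC is highest and untreated DKO lowest, with differences between genotypes of −0.19 (SE 0.047, adjusted p = 0.00686) and −0.26 (adjusted p = 0.000733). *Atp6v1h*, a regulatory subunit and the least abundant of the 4, was at 112, 98.9 and 101 TPM, then 108, 121 and 116, then 99, 109 and 104, then 105, 100 and 117. Its conditions overlap throughout, and neither difference was called (−0.00 and −0.10, adjusted p = 0.981 and 0.266).

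*Tfeb* and *Tfe3*, the regulators, had no call at the RNA level in the fit used throughout. *Tfeb* was at 14.8, 15.6 and 15.2 TPM in untreated NTC, 13, 15.1 and 11.8 in treated NTC, 14.9, 15.1 and 16.2 in untreated DKO, and 12.6, 16 and 12.8 in treated DKO. Replicate 2 is the high library in both treated conditions, and the genotypes overlap. The genotype differences of *Tfeb* were 0.02 untreated, with a 95% interval from −0.19 to 0.22, and 0.05 treated, from −0.15 to 0.25 (adjusted p = 0.915 and 0.686). In 1 of 20 alternative fits, with a replicate block and the trend over GC content and length removed, the treated value turns to −0.20 and is called (adjusted p = 0.0499). *Tfe3* was at 27.5, 26.1 and 26 TPM, then 23.5, 22.8 and 24.3, then 26.1, 25.3 and 27.2, then 26.8, 26.8 and 23.6. Treated NTC is low as a group, and treated DKO replicate 3 falls within it. For *Tfe3* the genotype differences were −0.02 untreated (interval −0.14 to 0.11, adjusted p = 0.83) and 0.12 treated (interval −0.00 to 0.25, adjusted p = 0.109). Without treated DKO replicate 3 *Tfe3* is called in treated cells (0.18, adjusted p = 0.0174), and its IFNγ difference in NTC, −0.17 with adjusted p = 0.073, is called as well (adjusted p = 0.0358). The position of the proteins in the cell, at which these factors are known to be controlled, was not measured.

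IFNγ in NTC cells raised 5 of the 37 members and lowered none (13.5% called), against 12.1% of all tested genes (7.31% higher and 4.78% lower); the members' share is near that background. In DKO cells it raised 1 and lowered none (2.7%), against 0.78% of all (0.677% higher and 0.103% lower). The median log2 difference over the members was 0.057 in NTC and 0.0815 in DKO, beside 0.0186 and 0.0081 over all tested genes, and the difference is above 0 for 26 of 37 members in NTC and 34 of 37 in DKO, beside 6361 and 6281 of the 11663 tested genes. Scaled to the same total, the medians over members and all tested genes were 0.0247 and −0.0098 in NTC and 0.0851 and 0.0116 in DKO. With median-ratio scaling they were 0.0329 and −0.0023 in NTC and 0.0679 and −0.0052 in DKO. For the difference between the responses, DKO minus NTC, no member was called, against 0.0343% of all tested genes, and the lowest adjusted p among members was 0.409. So a member called in NTC and not in DKO is not shown to respond differently. For all tested genes the split in NTC depends on scaling, at 853 higher and 558 lower as deposited, 525 and 639 with libraries scaled to the same total, and 571 and 671 with median-ratio scaling; the members are at 4 higher and 0 lower under either, in place of 5 and 0. The treated and untreated libraries here are the same ones that enter the comparisons of genotype.

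**Figure D3:**
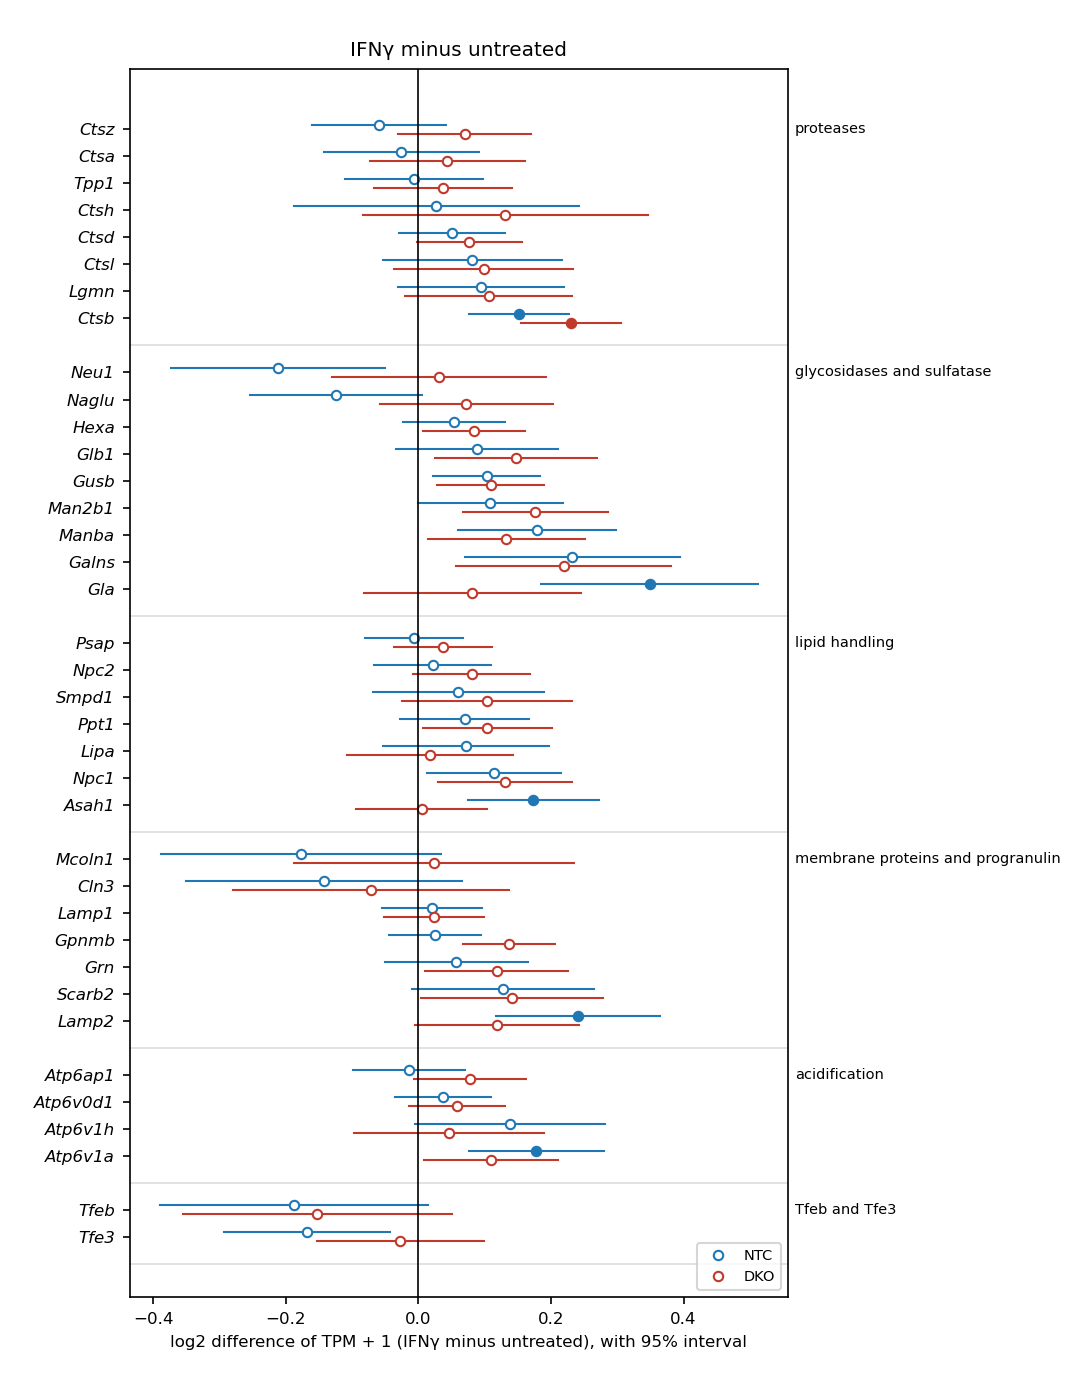
Log2 difference of TPM + 1 between IFNγ-treated and untreated cells for the 37 tested members, grouped by role, in NTC and DKO. Bars are 95% intervals; filled points have an adjusted p under 0.05 and open points do not.

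*Ctsb* is the 1 member called in both genotypes, with the values of each library given above: it rose by 0.15 in NTC (SE 0.0349, adjusted p = 0.0186) and 0.23 in DKO (adjusted p = 0.00326), and the difference between these was 0.08 (adjusted p = 0.534). The DKO call for *Ctsb* holds in all 20 alternative fits, while the NTC call ends when untreated NTC replicate 2 (adjusted p = 0.0727), untreated NTC replicate 3 (0.0733) or treated NTC replicate 3 (0.078) is left out. *Gla* was at 18.2, 17.7 and 18.1 TPM in untreated NTC, 21.6, 25.7 and 22.4 in treated NTC, 16.1, 17.9 and 17.5 in untreated DKO, and 20.1, 16.9 and 17.8 in treated DKO. Treated NTC stands above the other 3 conditions, which overlap. *Gla* rose by 0.35 in NTC (SE 0.0761, adjusted p = 0.0158), a call that ends without untreated NTC replicate 2 (0.0573) or 3 (0.0532) or treated NTC replicate 2 (0.0633). It also ends with the replicate block and the trend over GC content and length removed together. In DKO the difference for *Gla* was 0.08 (adjusted p = 0.793), and the difference between responses was −0.27 (adjusted p = 0.417).

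The other 3 called in NTC were *Lamp2* at 0.24 (SE 0.0574, adjusted p = 0.0216), *Atp6v1a* at 0.18 (SE 0.047, adjusted p = 0.03) and *Asah1* at 0.17 (SE 0.0458, adjusted p = 0.0303). For all 3 the treated NTC libraries are above the untreated ones. Each of these calls is lost without untreated NTC replicate 2 or 3, or treated NTC replicate 2 or 3: adjusted p then reaches 0.0831 at most for *Lamp2*, 0.116 for *Atp6v1a* and 0.118 for *Asah1*. With the trend over GC content and length removed they end too (0.0577, 0.163 and 0.356). The *Asah1* call, kept in 11 of 20 alternative fits, also ends with the replicate block (0.0509), under median-ratio scaling (0.0531) and at the same total (0.053). In DKO the same genes had 0.12, 0.11 and 0.01 (adjusted p = 0.547, 0.476 and 0.991). Leaving out untreated NTC replicate 2 or 3 leaves 0 members called in NTC, leaving out treated NTC replicate 2 or 3 leaves 1, and leaving out treated NTC replicate 1, treated DKO replicate 2 or treated DKO replicate 3 gives 8. *Manba* at 0.18 (adjusted p = 0.0504) and *Galns* at 0.23 (adjusted p = 0.0596) lie near the threshold in NTC. With all libraries kept, *Galns* is called when the trend over GC content and length is removed, with or without a replicate block, and *Manba* with a pseudocount of 0.1. Without treated DKO replicate 2 both are called (adjusted p = 0.0452 for *Manba* and 0.0406 for *Galns*), as is *Neu1*, at −0.21 (adjusted p = 0.0765, or 0.0241 without that library). Leaving out treated NTC replicate 1 calls *Galns* (0.0473), *Neu1* (0.0477) and *Scarb2* (0.048), and leaving out treated DKO replicate 3 calls *Manba* (0.0376) and *Neu1* (0.0472). Among the regulators *Tfeb* had −0.19 in NTC and −0.15 in DKO (adjusted p = 0.186 and 0.652), and the NTC value turns to 0.12 (adjusted p = 0.427) with the trend over GC content and length removed.

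Summed over all 38 members, the level was 7896 TPM in untreated NTC (SD 127 over 3 libraries), 8105 in treated NTC (SD 127), 7144 in untreated DKO (SD 19.3) and 7671 in treated DKO (SD 137). This is between 0.864% and 0.969% of the listed TPM of a library. The share was 0.935%, 0.927% and 0.92% in untreated NTC and 0.872%, 0.871% and 0.864% in untreated DKO. In treated cells it overlaps between genotypes, at 0.931%, 0.915% and 0.947% in NTC and 0.927%, 0.969% and 0.911% in DKO. By role, the proteases summed to means of 1891, 1947, 1660 and 1781 TPM in the same order, and the membrane proteins with progranulin, led by *Gpnmb*, to 3879, 3973, 3474 and 3777. Acidification had 624.1, 656.3, 545.2 and 573.6 TPM, and lipid handling 887.6, 912.1, 837.9 and 870.3. The glycosidases run the other way with 572.2, 580.4, 585.9 and 628.4 TPM, and *Tfeb* with *Tfe3* had 41.77, 36.82, 41.6 and 39.55. These sums are levels and follow their most abundant members; no test was made on them.

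**Figure D4:**
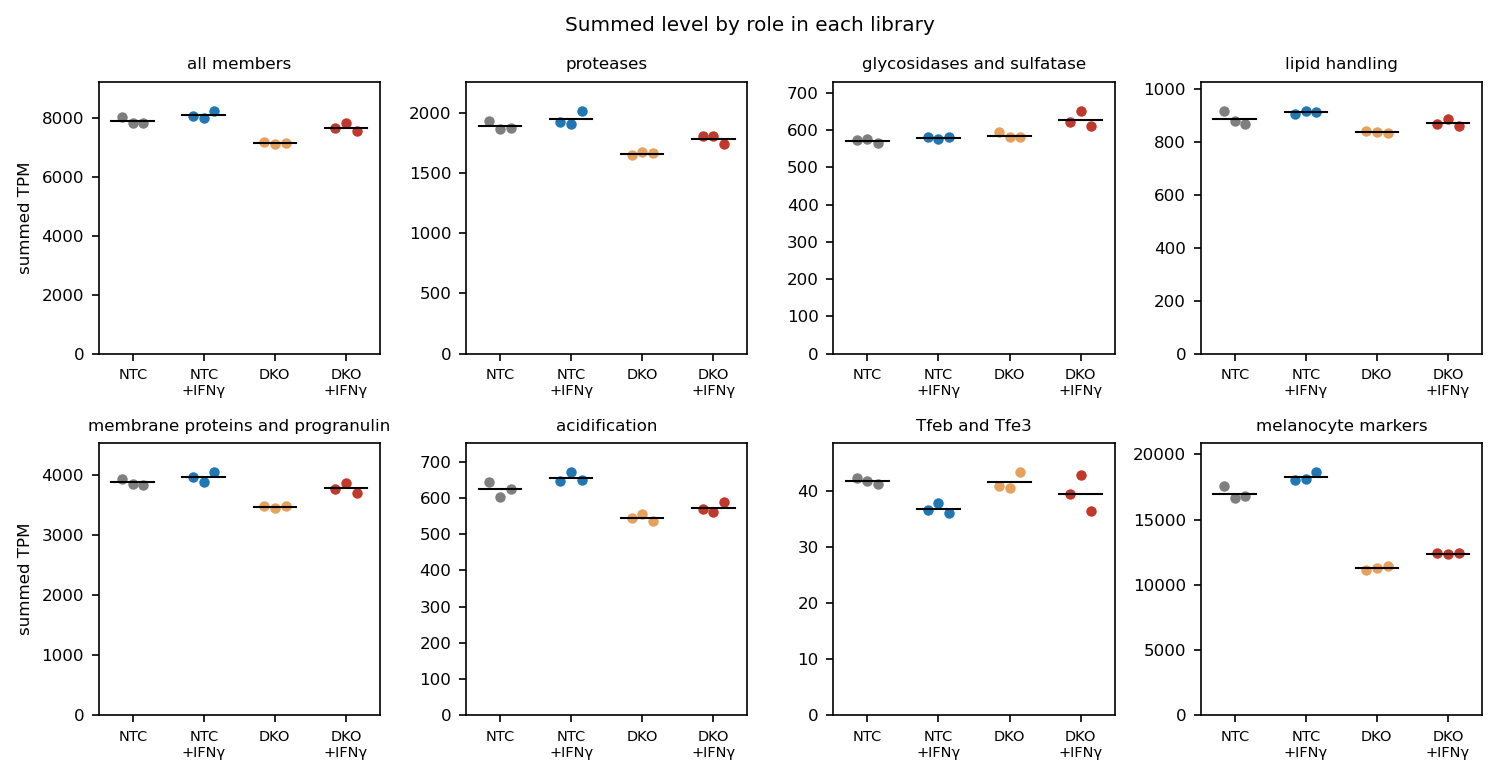
Summed TPM in each library for all members, for each of the 6 roles and for the melanocyte markers. Each point is a library and each short line the mean of a condition.

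Other genes of the pathway, from lists by role, show where the members sit. Among the other V-ATPase subunits 2 of 14 tested were called higher and 8 lower in untreated DKO, and 3 higher and 7 lower in treated DKO (71.4% called in each, against 36.4% and 43.3% of all tested genes). The 4 with the largest untreated difference were *Atp6v1g1* at −0.45, *Atp6v0a1* at −0.37, *Atp6ap2* at −0.35 and *Atp6v1d* at −0.33 (adjusted p from 1.34e-05 to 0.00276), and treated they were *Atp6v1d* at −0.46, *Atp6ap2* at −0.39 (−0.22 with the trend over GC content and length removed), *Atp6v1c1* at −0.39 and *Atp6v1g1* at −0.36 (1.36e-05 to 0.000216). Of 27 other lysosomal enzymes 5 were higher and 12 lower untreated (63% called), and 4 and 11 treated (55.6%). They include the cathepsin *Ctsf*, which lies between 0.456 and 1.98 TPM, at 0.69 and 0.70 (1.19 and 1.27 with a pseudocount of 0.1), and the heparan sulfate acetyltransferase *Hgsnat* at 0.55 and 0.52, with the arylsulfatase *Arsa* at −0.55 and −0.26, the phosphatase *Acp2* at −0.53 and −0.49 and the carboxypeptidase *Scpep1* at −0.46 and −0.40, untreated and treated (adjusted p from 2.9e-07 to 0.0215). *Hgsnat* and *Naglu* act in the same breakdown of heparan sulfate and have opposite signs.

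Of 14 other lysosomal membrane proteins 2 were higher and 5 lower untreated (50% called), and 2 and 4 treated (42.9%). The chloride-proton exchanger *Clcn7* fell, at −0.50 and −0.40 (adjusted p = 1.07e-05 and 5.79e-05) while its partner *Ostm1* rose by 0.19 and 0.32 (0.00745 and 0.000176). The amino acid sensor *Slc38a9* had −0.35 and −0.40 (adjusted p = 0.0344 and 0.0175), the treated call being lost without treated NTC replicate 2 (0.0759) or treated DKO replicate 1 (0.0769), and the untreated one when untreated NTC replicate 1 (0.136) or 3 (0.12) or untreated DKO replicate 1 (0.124) or 2 (0.0697) is left out. The untreated call is also lost with no filter on low values and at the same total. The potassium and proton channel *Tmem175* had −0.28 untreated (0.0141), lost without untreated DKO replicate 2 (0.0543) or 3 (0.0517). In the sorting of enzymes to the lysosome 3 of 12 were higher and 3 lower untreated (50% called), and 2 and 2 treated (33.3%), against 36.4% and 43.3% of all tested genes. *Gnptab*, which makes the mannose phosphate tag, rose by 0.81 and 0.68 (adjusted p = 5.43e-07 and 2.48e-06) and its receptor *Igf2r* by 0.45 and 0.48 (7.43e-06 and 3.36e-06), while the receptor *Sort1* fell, at −0.45 and −0.45 (3.24e-06 and 3.14e-06), the adaptor *Gga1* fell, at −0.31 untreated (0.00116) and the retromer subunit *Vps35* fell, at −0.35 treated (0.000961, and −0.20 with the trend over GC content and length removed).

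Among relatives of *Tfeb* and *Tfe3* and the mTORC1 machinery on lysosomes, none of 14 was called higher in either treatment. Lower calls were made for 4 untreated (28.6%) and 6 treated (42.9%). Over all tested genes 19.4% and 23.9% were called lower, 17% and 19.5% higher, and 36.4% and 43.3% in either direction. *Mitf*, which is a melanocyte marker as well, fell, at −0.42 and −0.53 (adjusted p = 1.71e-05 and 2.14e-06). The Rag GTPases *Rragd* and *Rragc* fell, at −0.39 and −0.19 untreated (0.000744 and 0.00701) and at −0.48 and −0.25 treated (0.000145 and 0.000777), the Ragulator subunit *Lamtor2* at −0.16 and −0.14 (0.00557 and 0.0106) and the folliculin partner *Fnip1* at −0.30 treated (0.00231, and −0.17 with the trend over GC content and length removed). *Tfeb* and *Tfe3* themselves had no call beside them.

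**Figure D5:**
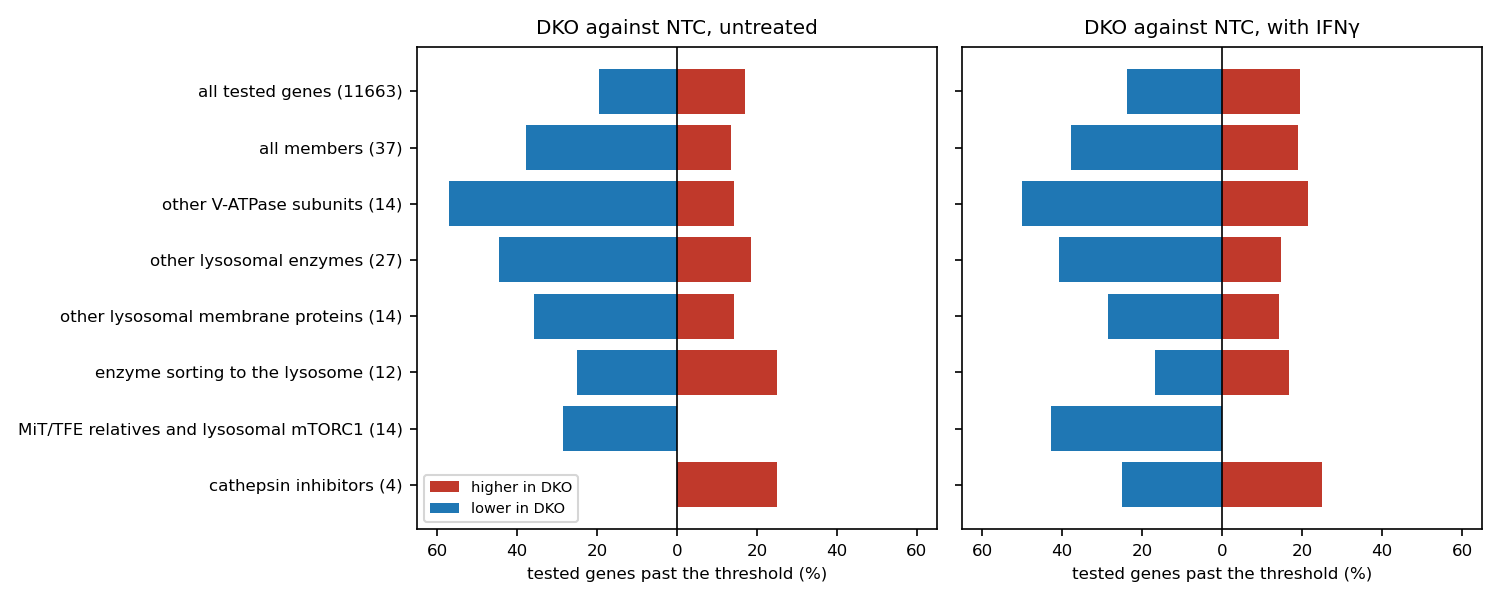
Share of tested genes called higher and lower in DKO, for all tested genes, the members and the other lists, in untreated and IFNγ-treated cells.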

How the data were processed

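RNA of 12 libraries was measured by poly(A), unstranded, paired-end sequencing with 50-base reads. The values are TPM that the authors made with RSEM 1.2.4 on the mm10 build; the deposited table is called counts, but its values are not whole numbers. TPM keep no depth, so no interval or floor from counting can be given, and no scaling between libraries is stated. The fit set for normalized values was therefore used: limma 3.58.1 with trend in R 4.3.3 on log2(TPM + 1), for genes that reach 1 TPM in 3 or more libraries, with 1 mean for each of the 4 conditions and Benjamini-Hochberg adjustment over all tested genes at 0.05. Replicate numbers are not used as pairs. Alternatives were a pseudocount of 0.1, no filter, 2 scalings, removal of the trend over GC content and length, a replicate block, the 6 libraries of a comparison alone and each of the 12 libraries left out. Per-library values are named for the cathepsins, *Tfeb*, *Tfe3*, the most and least abundant member of each role and up to 3 called members with groups that do not overlap, by smallest adjusted p. Of each other list up to 4 called genes per comparison with the largest difference are named; the other members are given by means, ranges and calls. Members and lists were chosen with earlier results of these data known. Gene positions came from GENCODE M21 and promoters from RefSeq; matplotlib 3.10.9, pandas 2.3.3 and numpy 2.4.6 under Python 3.11.15 made the tables and figures.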

Additional observations from a re-analysis of the deposited data

How the results depend on the processing

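In NTC, IFNγ called 5 members, 0 to 8 with a library left out, 2 with the replicate block and the trend over GC content and length removed, and 4 with the replicate block. With the trend alone removed 5 were called, of which 2 are among the 5 of the fit used throughout. Over all tested genes 1411 were called, 319 to 2020 with a library left out, 897 with no filter, 519 with the trend removed and 410 with the block and the trend removed. In DKO, IFNγ called 1 member in every fit, and the difference between responses called none. Between genotypes 19 members were called untreated (17 to 20 with a library left out) and 21 treated (19 to 23). Scaled to the same total the treated count was 25, with 15 higher and 10 lower in place of 7 and 14, with the 6 libraries alone it was 17, and with the block and the trend removed 18. With the replicate number as a block the counts of members were 4, 1, 0, 19 and 20 for IFNγ in NTC, IFNγ in DKO, the difference between these, and genotype untreated and treated; after removal of the conditions, correlations between libraries of the same number ran from −0.179 to 0.182, and 2 of 12 libraries matched their own number best, so the numbers were not used as pairs. Values near 0 changed sign in many fits, among them the members' genotype medians; those with a sign opposite to the fit used throughout, where that fit or the alternative made a call, are these. With the block and the trend removed *Tfeb* had −0.20 between genotypes in treated cells (adjusted p = 0.0499) in place of 0.05. With the trend over GC content and length removed *Gga1* had 0.0708 for IFNγ in NTC (adjusted p = 0.41, or 0.437 with the block) in place of −0.21, and *Serpinb6a* had 0.0206 between genotypes in treated cells (adjusted p = 0.722, or 0.669 with the block) in place of −0.16; the cause was not tested.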

Other observations

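Outside the 38 members, IFNγ called few other lysosomal genes in both genotypes. *Ctso*, a cysteine cathepsin, was at 3.45, 3.83 and 3.75 TPM in untreated NTC, 7.53, 7.06 and 7.66 in treated NTC, 4.53, 3.96 and 4.69 in untreated DKO, and 6.64, 6.32 and 7.35 in treated DKO. Treated libraries are high in both genotypes, and *Ctso* rose by 0.85 in NTC (limma adjusted p = 2.74e-05) and 0.53 in DKO (adjusted p = 0.00405), called in all 20 alternative fits in both. *Cd68*, a membrane protein of late endosomes that is abundant in macrophages, was at 1.97, 1.51 and 1.6 TPM, then 2.62, 1.65 and 1.99, then 2.4, 3.11 and 2.53, then 6.49, 5.39 and 4.84. Treated DKO stands above the rest. *Cd68* rose with IFNγ in DKO by 0.83 (adjusted p = 0.00551) and had 0.19 in NTC (adjusted p = 0.368), but the difference between these responses was not called (0.65, adjusted p = 0.364). It was higher in DKO than in NTC by 0.45 untreated (0.0194) and 1.10 treated (3.27e-05). Its untreated call ends when untreated NTC replicate 2 (0.0668) or 3 (0.058) or untreated DKO replicate 2 (0.0818) is left out. In NTC, IFNγ also called *Mitf* at 0.27, the protease inhibitor *Serpinb6a* at 0.27, the proton pump subunits *Atp6v1c1* at 0.17 and *Atp6v0c* at −0.34, and the membrane proteins *Cd63* at 0.19 and *Laptm4a* at 0.13. In enzyme sorting 4 of 12 tested genes were called higher and 1 lower (41.7% called, against 12.1% of all tested genes). The 4 with the largest difference were *Vps26a* at 0.23, *Vps35* at 0.22, *Vps29* at 0.17 and *Gga1* at −0.21. Among the genes listed from *Mitf* to *Gga1*, *Mitf* and *Serpinb6a* are called in 18 of 20 alternative fits, *Cd63* in 16, *Vps29* in 15, *Atp6v1c1* in 14, *Atp6v0c*, *Vps26a* and *Gga1* in 9, *Vps35* in 5 and *Laptm4a* in 4. With the trend over GC content and length removed, *Cd63* alone among them keeps its call, and *Gga1* turns to 0.07 (adjusted p = 0.41). Over the 20 alternative fits the lowest value was 0.16 for *Mitf*, 0.13 for *Serpinb6a*, 0.06 for *Vps29* and 0.07 for *Atp6v1c1*.

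Of 4 cathepsin inhibitors, *Cst6* was higher in DKO by 0.60 untreated (adjusted p = 0.000242) and 0.66 treated (9.11e-05), and *Serpinb6a* was lower in treated DKO, at −0.16 (0.0082), a call lost at the same total (−0.07, 0.159) and with the trend over GC content and length removed, where the value turns to 0.02 (0.722). The MHC class II compartment, in which cathepsins cut the invariant chain in antigen-presenting cells, had *H2-Aa*, *H2-Ab1* and *H2-Eb1* at 0 in all 12 libraries, and 2 of its 8 listed genes were tested. *Ifi30*, a thiol reductase with a mean of 53.2 TPM, was higher in DKO by 0.22 (adjusted p = 0.0101) and 0.26 (0.00352), and *H2-DMb1* was lower in treated DKO, at −0.53 (0.0474), a call held by 7 of 20 alternative fits.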
